A study of Mus musculus with 36 samples.

Results

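Narrow promoter DHS were defined as DNase I hypersensitive sites (DHS) at most 200 bp wide whose edge lay within 1000 bp of the transcription start site (TSS) of a protein-coding gene in the GENCODE vM21 basic annotation of mouse genome GRCm38, also called mm10. Of the 52788 DHS of the table, 11583 were promoter DHS by this distance, and 2607 of these (22.5% of promoter DHS, 4.94% of all DHS) were narrow. The other 8976 promoter DHS are called wider promoter DHS here. Width and position chose the sites, and no measured value was used, but the authors' peak caller set the widths.

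The data came from B3, a mouse pre-B lymphocyte line, in DNase-seq, which sequences the ends of fragments that the enzyme DNase I releases from open chromatin. Ikaros cells were B3 cells transduced with a mouse stem cell virus (MSCV) retroviral vector for HA-tagged wild type Ikaros fused to the hormone-binding domain ERt2, followed by an IRES and GFP. Control cells carried the same vector with ERt2 and no Ikaros. Each line was a transduced population sorted for GFP and not a set of independent clones, so line and construct cannot be told apart. The 36 libraries cover both lines at 0 h and at 5 later times (2, 6, 12, 18 and 24 h), and every one of the 12 groups has replicates numbered 4, 5 and 6, which belong to batches 11, 12 and 13. The labels name 0.5 µM 4-hydroxytamoxifen (4-OHT) for all samples, whereas the methods state that 0 h cells received none and were collected apart from the time courses. Values are log2 of read density per kb, scaled to library size, after the authors' noise correction, so every level and difference below is on the log2 scale and relative to the other DHS of a library.

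A gene's promoter is the DNA around its TSS, where general transcription factors and RNA polymerase assemble, and in active mammalian genes the DNA there is usually cleared of nucleosomes and is cut by DNase I. Many mammalian promoters are CpG islands, stretches rich in G, C and the CpG dinucleotide that are mostly free of DNA methylation and are bound by factors such as Sp, ETS, NRF1 and NF-Y family members. Ikaros (Ikzf1) is a zinc finger transcription factor that recruits chromatin remodelling complexes and drives pre-B cells out of the cell cycle and towards differentiation.

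The sequences of named DHS that overlapped no annotated untranslated region are printed first, because their base composition differs by the direction of the differences described below. The printed sequences read 5′ to 3′ on the plus strand of GRCm38, CpG dinucleotides are in capitals, and coordinates are those of the file. The start was taken to count from 0, which the file does not state and which leaves 1 bp open. At 24 h, DHS higher in Ikaros cells lay upstream of Mrgpra1 (chr7:47354340-47354502) and Klhl15 (chrX:94234004-94234180), and those lower lay upstream of Efcab2 (chr1:178405609-178405739) and in an intron of Lrp10 (chr14:54464747-54464877).
Mrgpra1: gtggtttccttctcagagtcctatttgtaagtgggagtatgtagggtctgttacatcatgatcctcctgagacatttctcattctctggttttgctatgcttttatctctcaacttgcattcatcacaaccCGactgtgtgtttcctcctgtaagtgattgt
Klhl15: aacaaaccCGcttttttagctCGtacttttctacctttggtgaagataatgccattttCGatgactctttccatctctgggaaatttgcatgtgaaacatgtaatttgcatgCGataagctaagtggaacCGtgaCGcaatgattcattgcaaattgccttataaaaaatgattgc
Efcab2: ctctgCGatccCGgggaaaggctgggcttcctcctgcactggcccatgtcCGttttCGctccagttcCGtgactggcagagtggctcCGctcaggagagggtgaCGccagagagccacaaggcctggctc
Lrp10: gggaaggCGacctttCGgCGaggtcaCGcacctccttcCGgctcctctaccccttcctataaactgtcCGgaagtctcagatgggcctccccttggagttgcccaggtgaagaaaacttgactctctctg

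The line difference rose from 0 h to 24 h at DHS near Tmem232 (chr17:65541134-65541275), Bloc1s6 (chr2:122739154-122739289) and Tnnt3 (chr7:142500629-142500747), and fell at DHS near Kat6b (chr14:21501203-21501333), Rusc1 (chr3:89090761-89090926) and Rhog (chr7:102250245-102250401). Capitals again mark CpG.
Tmem232: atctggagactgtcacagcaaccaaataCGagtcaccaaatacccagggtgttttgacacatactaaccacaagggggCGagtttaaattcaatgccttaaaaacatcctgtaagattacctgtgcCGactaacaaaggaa
Bloc1s6: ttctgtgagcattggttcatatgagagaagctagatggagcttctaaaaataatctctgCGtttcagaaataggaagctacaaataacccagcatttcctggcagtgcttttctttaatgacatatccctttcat
Tnnt3: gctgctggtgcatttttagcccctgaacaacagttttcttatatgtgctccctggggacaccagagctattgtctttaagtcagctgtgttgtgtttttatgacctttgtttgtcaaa
Kat6b: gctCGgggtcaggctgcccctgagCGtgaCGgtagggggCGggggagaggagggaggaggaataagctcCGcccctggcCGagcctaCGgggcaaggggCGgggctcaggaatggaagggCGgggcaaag
Rusc1: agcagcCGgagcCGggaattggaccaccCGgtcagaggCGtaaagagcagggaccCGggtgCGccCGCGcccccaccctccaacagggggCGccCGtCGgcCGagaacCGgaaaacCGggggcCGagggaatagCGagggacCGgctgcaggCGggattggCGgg
Rhog: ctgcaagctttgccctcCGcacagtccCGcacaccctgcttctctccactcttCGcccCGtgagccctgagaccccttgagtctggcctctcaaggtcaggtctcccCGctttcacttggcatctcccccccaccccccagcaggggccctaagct

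The rising sites held 3, 1 and 0 CpG at 42.6%, 37.8% and 42.4% GC, and the falling ones 9, 19 and 5 CpG at 71.5%, 72.7% and 64.7% GC, in the order printed. The Ikaros core letters TGGGAA occurred on either strand once (1 match) in the Klhl15 sequence and in none of the other 9 printed sequences. The Sp/KLF letters GGGCGG occurred 4 times in the Kat6b sequence, the ETS letters CCGGAAG 2 times in that of Lrp10, and the NF-Y letters CCAAT 2 times in that of Rusc1 and 1 time in that of Bloc1s6. A letter match is a description and not a bound site.

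The widths clustered at a few values. They ranged from 68 to 200 bp with a median of 130 bp, and 1092 DHS (41.9%) were exactly 130 bp and 147 (5.64%) exactly 156 bp wide. Narrow DHS farther than 1000 bp from any TSS showed the same widths, with 40.5% at 130 bp and 4.84% at 156 bp. The authors ran the peak caller once with a default narrow size and once with a size of 500 bp and merged both sets, so a site's width also depends on that setting. The 113 promoter DHS of 181 to 200 bp and the 76 of 201 to 220 bp, on either side of the width limit, had median levels of 4.66 and 4.54 and median 0 h differences of 0.34 and 0.37.

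Narrow promoter DHS lay within 1000 bp of 2463 genes, which were 24.2% of the 10183 protein-coding genes with a promoter DHS of any width. Of these genes, 2164 had 1 narrow DHS, 276 had 2, 18 had 3 and 5 had 4, and 897 had no wider promoter DHS. Few sites sat on the TSS itself, as 596 (22.9%) contained one, compared with 85.9% of wider promoter DHS. The centre of 44.0% lay within 300 bp of the TSS, against 85.7% of wider promoter DHS. By strand, 624 were centred upstream beyond 300 bp, 754 upstream within 300 bp, 394 downstream within 300 bp and 835 downstream beyond 300 bp. With each site given 1 place in that order, 243 overlapped a coding exon, 802 an untranslated exon (of the full annotation), 78 another exon and 994 an intron, and 490 lay between genes.

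**Figure D1:**
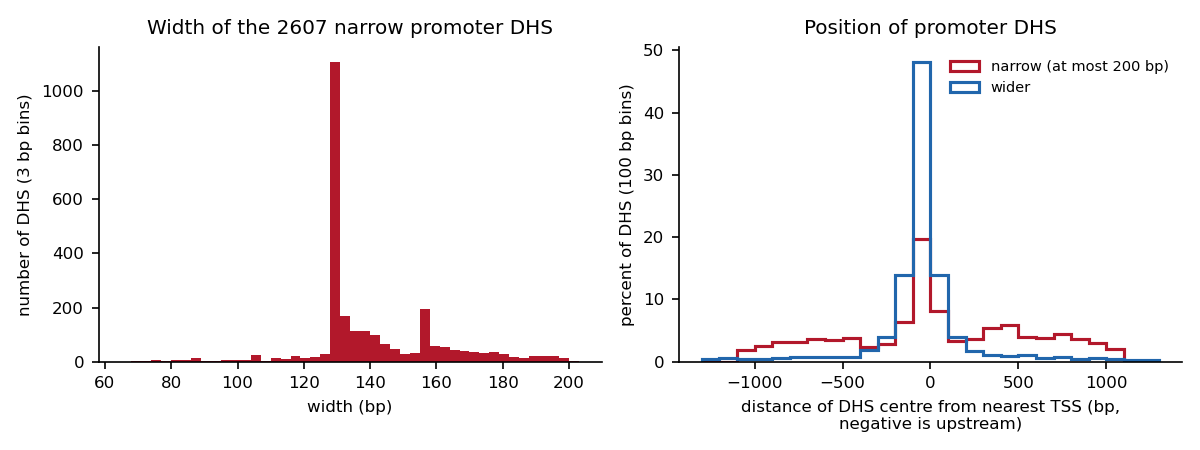
Left, widths in bp of the 2607 narrow promoter DHS in 3 bp bins. Right, distance in bp of the DHS centre from the nearest TSS, as percent of narrow (red) and wider (blue) promoter DHS in 100 bp bins; 44.0% of narrow and 85.7% of wider DHS were centred within 300 bp.

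A wider promoter DHS lay within 1000 bp of the same TSS in 1405 cases (53.9%), at a median gap of 256 bp, and the other 1202 (46.1%) were solitary. The median level was 4.45 for DHS with such a neighbour and 3.99 for solitary DHS. The neighbour's own median was 4.73, and the narrow DHS was the higher of the pair in 500 pairs (35.6%). Levels of the pair correlated across sites with r = 0.697 (1405 pairs from 1309 neighbours, sharing libraries and base composition).

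Narrow promoter DHS were of middle accessibility. The median level over the 36 libraries was 4.25, with 5% below 3.30 and 5% above 5.46. The median was 4.79 for wider promoter DHS, 3.79 for narrow DHS away from any TSS and 3.95 for all DHS. Read back from log2 and multiplied by width, the median narrow promoter DHS held 2.74 RPM (reads scaled to library size, not weighted by length), against 16.2 for wider promoter DHS, so each value rests on fewer reads. The depth of each library is unknown and no counting interval was given. Between replicates the median SD from 2 h to 24 h was 0.31 for narrow and 0.18 for wider promoter DHS. It was 0.34 to 0.47 in the control groups and 0.24 to 0.27 in the Ikaros groups at these times, and 0.42 in control and 0.41 in Ikaros cells at 0 h.

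The most accessible site, at 11.25, was a 130 bp DHS downstream of the TSS of the predicted gene Gm21738, which lies wholly in soft-masked repeat sequence. Its libraries ranged from 9.56 to 12.79, and how well reads map there was not tested. The next were DHS upstream of Hdgfl2, a relative of hepatoma-derived growth factor, at 6.74 (6.19 to 7.37) and of D2hgdh, a mitochondrial dehydrogenase of D-2-hydroxyglutarate, at 6.60 (6.00 to 7.14). The least accessible lay by Phf10, a subunit of a SWI/SNF complex, at 2.38 (0.083 to 3.61), Rbpms2 at 2.49 (0.34 to 3.95) and the growth factor gene Pdgfb at 2.64 (0.70 to 4.80). The Phf10 and Rbpms2 sites were 82.3% and 83.1% GC.

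Over all DHS, library medians ranged from 3.90 to 4.11, no pair of libraries held identical values, and the 12 group means spanned 6 of 11 possible dimensions after the authors' correction, so the groups are not independent. Read as base 2, the values sum to 369486 to 432754 RPM in a library, while in base e the sums would be 1575615 to 2338646, more than a library can hold. Of 12 B-lineage markers 10 had a promoter DHS, including Cd79a, Pax5, Ebf1, Vpreb1, Igll1 and Rag1, against 3 of 10 T-lineage, 2 of 9 myeloid and 1 of 5 erythroid markers. Promoter DHS of T-lineage markers (Lck, Tcf7, Gata3) had levels of 3.92 to 4.53, and their medians were 4.22 in Ikaros and 4.25 in control cells. Those of myeloid markers (Lyz2, Spi1) had 3.29 to 4.42, with medians of 4.02 and 3.68, and the erythroid Klf1 had 4.58. None of the myeloid or erythroid markers had a narrow promoter DHS, and the part of other cell types in the results was not tested.

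Of the 36 libraries, 3 of the 0 h groups stood apart. The correlation with the mean of the other libraries across the 2607 narrow promoter DHS was r = 0.556 for Control 0h replicate 6, 0.623 and 0.624 for Ikaros 0h replicates 5 and 4, and 0.706 to 0.904 for the rest. In Control 0h replicate 6, 42 sites lay below a level of 1, against 12 and 25 in Ikaros 0h replicates 5 and 4. The 42 sites had a median GC content of 75.4% and a median of 3.13 over the other Control 0h libraries. Total counts at 0 h and in the change from 0 h are given without each of these 3, and medians and calls by GC content, position, motif and gene list also without Control 0h replicate 6. Over 2607 sites its removal left a median 0 h difference of 0.17.

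As a group the narrow promoter DHS differed most between the lines at 0 h. The mean of the 3 library medians was 4.45 ± 0.061 in Ikaros and 4.23 ± 0.055 in control cells (SD, n = 3), and the groups did not overlap, since the Ikaros medians were 4.51, 4.40 and 4.42 and the control medians 4.22, 4.29 and 4.18. From 2 h to 24 h Ikaros group means lay between 4.26 and 4.31 and control means between 4.31 and 4.37. At 24 h they were 4.28 ± 0.019 in Ikaros and 4.31 ± 0.02 in control cells (SD, n = 3), and the Ikaros medians of 4.27, 4.26 and 4.30 overlapped the control medians of 4.29, 4.31 and 4.33. The wider promoter DHS were at 5.05 ± 0.046 and 4.60 ± 0.16 at 0 h (SD, n = 3).

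**Figure D2:**
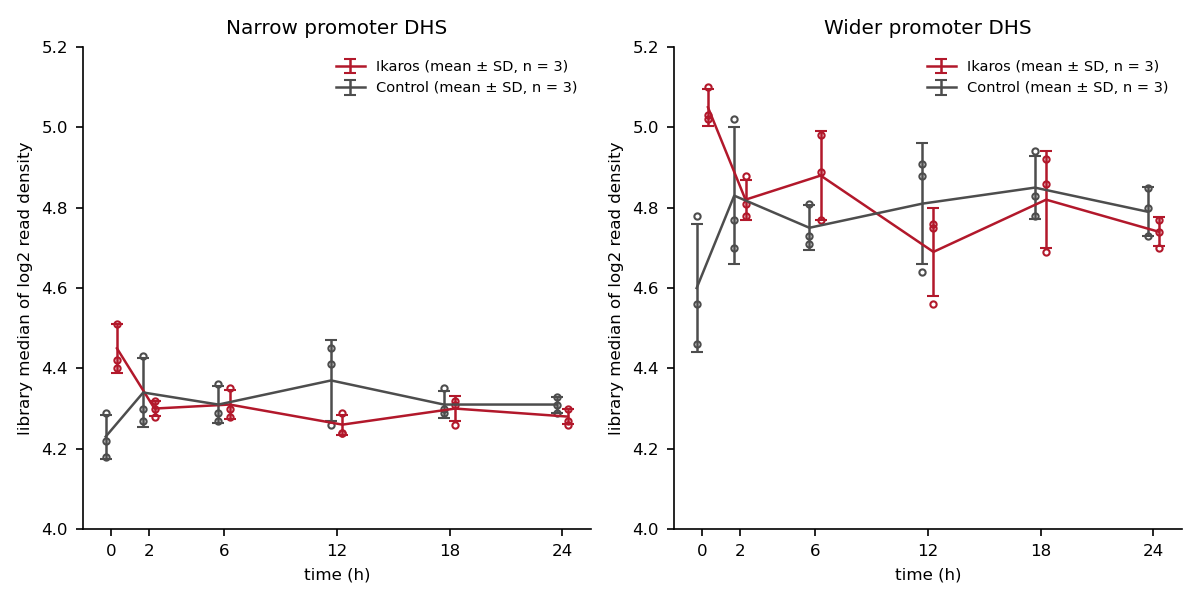
Library medians of log2 read density over narrow (left) and wider (right) promoter DHS against time in h. Open circles are libraries, lines join group means and bars are SD (n = 3); Ikaros cells are red and control cells grey, and for narrow DHS the lines were apart at 0 h (4.45 and 4.23) and closer at 24 h (4.28 and 4.31).

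To ask which sites differed before induction, the lines were compared at 0 h with limma and Benjamini-Hochberg adjustment over all DHS. Of the narrow promoter DHS, 361 (13.8%) were called, against 12.9% of all DHS. They were mostly higher in Ikaros cells, 312 (12.0%) against 7.81% of all DHS, and 49 (1.88%) were lower, against 5.04% of all DHS. Wider promoter DHS were called in 33.5% of cases and narrow DHS away from any TSS in 6.93%, there mostly lower (185 higher and 1258 lower). The median difference was 0.20 for narrow promoter DHS, 0.42 for wider promoter DHS and -0.06 for all DHS. The libraries of the lines were fully separate in 564 sites (21.6%), against 23.6% of all DHS. Without Control 0h replicate 6, 130 were called (121 higher), against 4.39% of all DHS. Without Ikaros 0h replicates 4 and 5 the counts were 211 and 298, for which no share of all DHS is given here. When only the 0 h groups were fitted, 0 were called by limma (0.00379% of all DHS). An unadjusted p under 0.05 was then found in 610 of 2607, against 8917 of all 52788 DHS.

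The largest 0 h differences sat in very GC-rich sites and rested in part on Control 0h replicate 6, which was below 1 in 9 of the 10 sites with the largest positive differences. The rule for named sites took only those whose libraries did not overlap between the lines, so the separation stated for them is part of the choice. A 130 bp DHS over an untranslated exon of Zfx, an X-linked zinc finger transcription factor (chrX:94123175-94123305, 71.5% GC), had Ikaros values of 5.16, 4.40 and 4.88 and control values of 2.51, 2.40 and 0.30. All Ikaros values were above all control values, also without the last one, and the difference was 3.08 ± 0.55 (SE; limma adjusted p = 0.000847). At Smarcc2, a core subunit of the SWI/SNF remodelling complex (chr10:128459140-128459270, 86.9% GC), the Ikaros values were 6.06, 3.78 and 4.82 and the control values 3.13, 2.78 and 0.33. The groups did not overlap, and the difference was 2.80 ± 0.53 (SE; limma adjusted p = 0.00140). Kat6b, a histone acetyltransferase gene, had 6.10, 5.88 and 5.56 in Ikaros cells and 4.55, 4.61 and 0.38 in control cells at its intronic site (2.66 ± 0.60, SE; limma adjusted p = 0.00456). The other control values at Kat6b also lay below every Ikaros value. Tapt1 (2.75, 82.9% GC) and Ubtd2, a ubiquitin-domain gene (2.56, 78.7% GC), had values of 0.28 and 0.26 in that library and 2.22 to 3.97 in the other control libraries. Without that library the Tapt1 difference was 1.97 and no longer called (limma adjusted p = 0.0577, range 0.00112 to 0.176 over the alternatives). The other 4 stayed called, with Kat6b at 1.27 and Ubtd2 at 1.45.

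Sites lower in Ikaros cells at 0 h were less GC-rich, with a median of 51.5% GC against 72.7% for the higher ones. Upstream of Tmem232, a transmembrane protein gene, Ikaros values were 1.46, 2.19 and 3.39 and control values 5.33, 3.64 and 4.39 (-2.11 ± 0.45, SE; limma adjusted p = 0.00342). The highest Ikaros value was below the lowest control value. Fam234a (-1.55, adjusted p = 0.00141 by limma) had 3.62, 3.28 and 2.87 against 4.68, 4.91 and 4.84, and later differences were -0.86, -1.03, -0.66, -1.24 and -1.05. That of 18 h was called (limma adjusted p = 0.0390), but not with the replicate block (0.0576, range 0.00560 to 0.483 over the alternatives). Its call at 0 h held in 15 of 17 alternatives. Arhgap25, a GTPase-activating protein of blood cells (-1.49), rested on 1 Ikaros library at 0.36 beside 3.88 and 3.69, and its call held in 4 of 17 and was lost with the block. Morf4l2, a subunit of histone acetyltransferase complexes (-1.48), and Slamf7, a SLAM family receptor (-1.44), held in 15 and 7 of 17. The calls of Arhgap25 and Slamf7 were also lost without Control 0h replicate 6.

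The 0 h difference followed base composition. The sites were split by GC content at 50.8%, 58.2% and 66.9%. The median 0 h difference was -0.11 in the lowest GC quartile (679 sites), 0.025 in the second, 0.25 in the third and 0.80 in the highest (635 sites), and the share called was 3.68%, 5.76%, 10.3% and 36.4%. Of all DHS within the same limits 7.88%, 8.89%, 24.5% and 57.7% were called, more than of the narrow promoter DHS in each quartile. The medians of the narrow promoter DHS without Control 0h replicate 6 were -0.15, -0.018, 0.20 and 0.70 and the shares 1.18%, 0.800%, 3.29% and 15.0%. With the same limits, wider promoter DHS had medians of 0.0026, 0.23, 0.46 and 0.77. In the highest quartile the library medians were 4.82, 4.61 and 4.56 in Ikaros 0 h cells and 3.72, 4.20 and 3.82 in control 0 h cells, so the groups did not overlap and each control library was lower. At 24 h the same sites had 4.24, 4.24 and 4.36 in Ikaros and 4.27, 4.12 and 4.19 in control cells, which overlapped. When trends of each library with level, GC content and width were removed, 64 sites were called at 0 h, against 2.89% of all DHS. The part of these trends in the 0 h calls cannot be told apart from a difference of the lines that itself follows GC content.

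**Figure D3:**
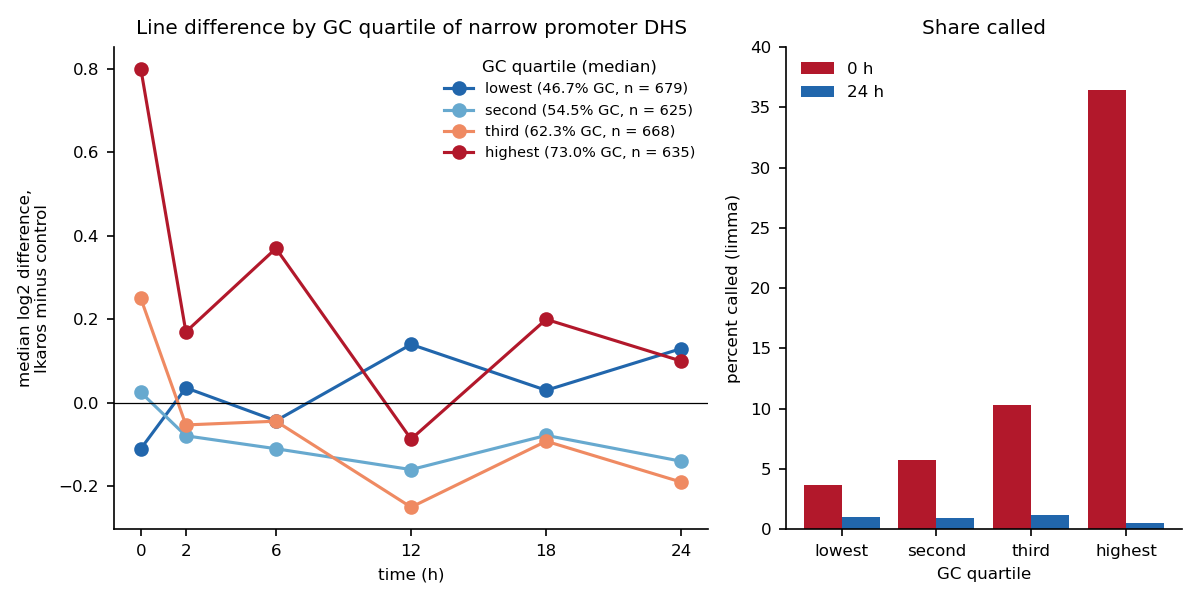
Left, median log2 difference (Ikaros minus control) at each time in h for narrow promoter DHS in 4 GC quartiles, with median GC and n in the key. Right, percent of each quartile called by limma at 0 h (red) and 24 h (blue); the highest quartile reached a median of 0.80 and 36.4% called at 0 h, and 0.10 and 0.472% at 24 h.

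Few sites differed between the lines at the early times. At 2 h limma called 0 narrow promoter DHS (0.195% of all DHS), and the lowest adjusted p was 0.0626. An unadjusted p under 0.05 was found in 281 (10.8%), against 10.0% of all DHS. Without Control 2h replicate 4, 5 or 6 it called 13, 12 and 7. At 6 h it called 20 (0.767%), against 0.578% of all DHS, with 14 higher (0.422% of all DHS) and 6 lower (0.155% of all DHS). After quantile normalization the split was 21 and 3, with 0.532% of all DHS called. Upstream of Tet3, an enzyme that oxidises 5-methylcytosine, Ikaros values were 3.98, 3.61 and 4.05 and control values 2.47, 0.087 and 2.54 at 6 h (2.18 ± 0.52, SE; limma adjusted p = 0.0452). The groups did not overlap, and 1 control library near 0 widened the gap. The DHS near both Rxrb, a retinoid X receptor gene, and Slc39a7, a zinc transporter gene, had 5.06, 5.28 and 4.86 against 3.85, 1.79 and 3.33 (2.08, limma adjusted p = 0.0142). Rpl38, a ribosomal protein gene, was lower in an upstream DHS, with 4.14, 3.20 and 4.10 against 4.77, 5.92 and 4.94 (-1.40, limma adjusted p = 0.0209). The 6 h count changed with the library left out. It was 39 without Control 6h replicate 4, 10 without Control 6h replicate 5, 6 without Ikaros 6h replicate 4 and 1 without Ikaros 6h replicate 5 or 6. The median 6 h call held in 8 of 17 alternatives, and 0 of the 20 held in all. With trends in level, GC and width removed the calls of Tet3 and Rxrb were lost. Quantile normalization also removed that of Tet3.

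At 12 h limma called 22 (0.844%), against 1.31% of all DHS, with 10 higher (0.887% of all DHS) and 12 lower (0.428% of all DHS). With the replicate number as a block limma called 13, against 0.904% of all DHS. At 18 h it called 11 (0.422%), against 0.699% of all DHS, with 7 higher (0.500% of all DHS) and 4 lower (0.199% of all DHS). Plekho1, a pleckstrin homology domain gene, had the largest 12 h difference named, with 3.33, 4.25 and 3.72 against 2.64, 0.91 and 0.82 (2.31, limma adjusted p = 0.0307). At 18 h Zfp541, a zinc finger gene, had 4.31, 3.80 and 4.03 against 2.28, 2.32 and 2.07 (1.82, limma adjusted p = 0.0279), and Cd47, the ligand of SIRP alpha that restrains phagocytosis, had 4.70, 3.77 and 3.74 against 1.84, 2.78 and 2.40 (1.73, limma adjusted p = 0.0219). Neither pair of groups overlapped. Prkag2, a regulatory subunit of AMP-activated kinase, was lower at 18 h in a DHS of 83.1% soft-masked sequence, with 4.09, 4.14 and 3.62 against 5.63, 5.41 and 5.30 (-1.50, limma adjusted p = 0.0341). The 12 h count was 38 without Control 12h replicate 4, 7 without Control 12h replicate 5, 3 without Ikaros 12h replicate 5 and 1 without Ikaros 12h replicate 4 or 6. The 18 h count was 0 without Ikaros 18h replicate 4, 1 without replicate 6 and 3 without replicate 5 of that group, and 6 and 7 without Control 18h replicates 4 and 6. Of the 22 and 11 calls at 12 h and 18 h, 0 held in all 17 alternatives, and the median call held in 5 and 7. The calls of Plekho1 at 12 h and of Zfp541, Cd47 and Prkag2 at 18 h were lost after quantile normalization. They were also lost with trends in level, GC and width removed.

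At 24 h, the last time, 24 narrow promoter DHS were called by limma (0.921%), against 1.33% of all DHS. Of these 7 were higher in Ikaros cells (0.809% of all DHS) and 17 were lower (0.652% of the narrow promoter DHS and 0.517% of all DHS). Values of the groups did not overlap in any of the 24. Over all narrow promoter DHS, the lines were fully separate in 517 (19.8%), against 25.5% of all DHS. The median difference was -0.042, against 0.055 for all DHS. With the replicate number as a block 14 were called, against 0.957% of all DHS. Leaving out 1 of the 6 libraries left between 5 (Ikaros 24h replicate 4) and 8 (Control 24h replicate 4), so the count fell whichever was left out. How much of this fall came from having fewer libraries was not tested. With a spread estimated for each group it was 128, against 6.12% of all DHS. By scaling, the split was 13 higher and 18 lower after quantile normalization, and 4 higher and 18 lower after centring each library on its median. Under these scalings 1.55% and 1.14% of all DHS were called.

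The sites higher at 24 h were mostly poor in GC, with a median of 40.8%. Their control means were 2.08 to 3.70, below the control median of 4.31, except at Pkd2l2 (4.56). Plekho1 had 4.45, 3.82 and 4.84 in Ikaros and 2.26, 1.28 and 2.82 in control cells, in a DHS 25 bp upstream of its TSS (chr3:95995961-95996091, 80.8% GC). All control values were below all Ikaros values, and the difference was 2.25 ± 0.54 (SE; limma adjusted p = 0.0322). Mrgpra1, a Mas-related receptor gene of sensory neurons, had 4.05, 3.91 and 4.12 against 2.43, 2.40 and 1.43 (1.94 ± 0.40, SE; limma adjusted p = 0.0129). The earlier differences were 0.32, 0.73, 1.07, 1.93 and 1.53 in order of time, of which that of 12 h was called. Asb2, which encodes a substrate receptor of a ubiquitin ligase, had 5.06, 4.84 and 4.54 against 2.48, 2.84 and 3.62 in a DHS 8 bp upstream of its TSS (chr12:103338315-103338447). The groups did not overlap (1.83 ± 0.45, SE; limma adjusted p = 0.0356).

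Klhl15, an adaptor of a cullin ubiquitin ligase, had 5.39, 5.02 and 4.97 against 2.24, 3.65 and 4.17 (1.78 ± 0.39, SE; limma adjusted p = 0.0190), and its control values were far apart. Poli, the translesion DNA polymerase iota, had 5.58, 5.43 and 5.05 against 2.90, 3.86 and 4.36 in an intronic DHS (1.65 ± 0.28, SE; limma adjusted p = 0.00297). The Poli call held in 15 of 17 alternatives, those of Mrgpra1 in 10 of 16, Klhl15 in 9, Plekho1 in 8 and Asb2 in 7 of 17. The other 2 higher sites, outside the rule for named genes, lay in introns of Arhgap17, a GTPase-activating protein (1.58), and Pkd2l2, a polycystin relative (0.86), at 39.5% and 39.2% GC.

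The 17 lower sites had a median GC content of 59.9%. The largest difference was that of an 86 bp DHS by Exd1 and Chp1, a calcium-binding protein gene (chr2:119547078-119547164), with 4.51, 3.17 and 4.36 against 5.33, 4.95 and 5.67 (-1.30 ± 0.33, SE; limma adjusted p = 0.0421 and 0.0512 with the replicate block, 0.0103 to 0.279 over all alternatives). Efcab2 had 4.47, 3.57 and 3.83 against 5.48, 4.81 and 5.25 (-1.22, limma adjusted p = 0.0488 and 0.0621 with the block, 0.0122 to 0.324 over all alternatives). Ssc5d, a scavenger receptor cysteine-rich gene, had 3.03, 3.46 and 3.50 against 4.46, 4.69 and 4.49 (-1.22, limma adjusted p = 0.0339). Lrp10, an LDL receptor relative, had 4.55, 3.29 and 4.43 against 5.14, 5.13 and 5.46 (-1.15, limma adjusted p = 0.0300). Calls of these lower sites held in 3 (Efcab2) to 8 (Ssc5d and Lrp10) of 17 alternatives.

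The other lower sites described here were not picked by the rule for named genes. They included Slc43a2, a transporter of large neutral amino acids (-1.06 ± 0.27, SE; limma adjusted p = 0.0461, held in 5 of 17 alternatives). Slc3a2, the heavy chain shared by several amino acid transporters (-0.95 ± 0.20, SE), had 4.73, 5.17 and 4.80 in Ikaros and 5.96, 5.62 and 5.97 in control cells in a 177 bp DHS 16 bp from its TSS (limma adjusted p = 0.0148). The call of Ptpn7, a tyrosine phosphatase of blood cells, held in 15 of 17 alternatives, the most among the lower sites, with 5.11, 5.19 and 5.13 against 6.25, 5.69 and 6.35 (-0.95 ± 0.17, SE; limma adjusted p = 0.00373). Its Ikaros libraries were close together and below every control library. The cell cycle gene Ccnd2, which encodes cyclin D2, had 5.02, 4.67 and 4.85 against 5.44, 5.62 and 6.19 (-0.90 ± 0.21, SE; limma adjusted p = 0.0287). The Ccnd2 call survived only 7 of the 17 alternatives. Leaving out any 1 Ikaros 24h library removed it, as did taking out trends with level, GC and width (-0.78). Rcor2, a partner of the demethylase LSD1 and a cofactor of chromatin, had a difference of -1.04. Others were B4gat1 (-1.06), Lgals1, which encodes galectin 1 (-0.93), Hook2 (-0.91), Atp13a3 (-0.80), Atp6v1g2, a subunit of the vacuolar proton pump that shares its site with Nfkbil1 (-0.80), and Pcif1 (-0.76). Of 17 alternatives, calls held in 11 at B4gat1, 9 at Atp13a3, 6 at Pcif1, 5 at Rcor2 and Hook2, and 3 at Lgals1 and Atp6v1g2.

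**Figure D4:**
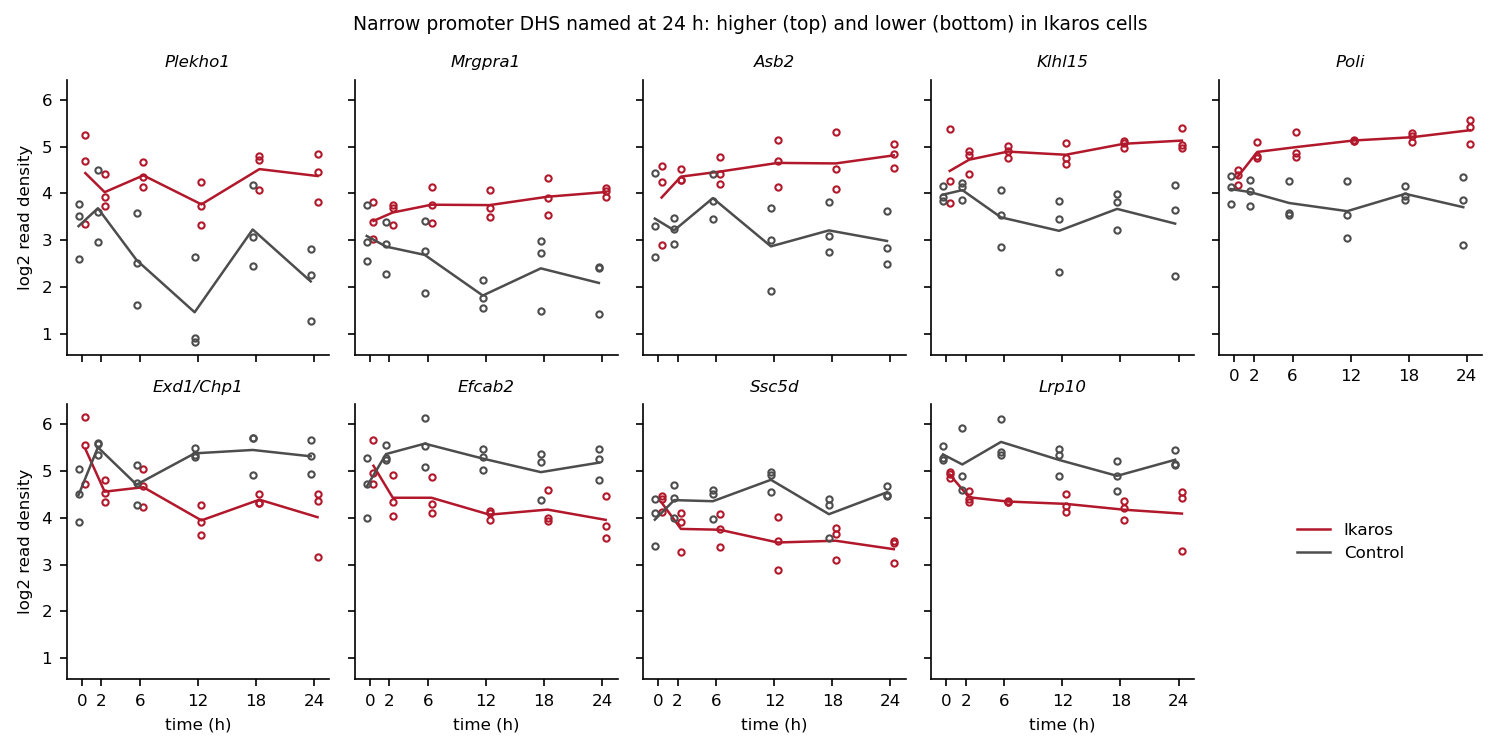
Log2 read density against time in h for 9 narrow promoter DHS named at 24 h, higher (top row) and lower (bottom row) in Ikaros cells. Circles are libraries (n = 3 a group), lines join group means, Ikaros is red and control grey; the sites were chosen for groups that do not overlap at 24 h, and the differences run from 2.25 (Plekho1) to -1.30 (Exd1/Chp1).

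Calls at several times after 0 h went one way. Of 52 narrow promoter DHS called at 1 or more of the 5 times from 2 h to 24 h, 33 were called once, 14 at 2 times, 4 at 3 and 1 at 4. All 19 called at more than 1 of these times had the same sign at each called time, and 17 were called at both 12 h and 24 h. Of 11 sites called at 0 h and at a later time, 9 had the same sign at every called time. These comparisons use the same populations and 1 correction by the authors, so they are not separate evidence.

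To ask whether the line difference changed with time, the difference at 24 h was set against that at 0 h in the same limma fit. By the methods, 0 h cells were collected apart and without 4-OHT, so the change also spans these conditions. The change was called in 124 narrow promoter DHS (4.76%), against 6.26% of all DHS, with 13 rises (0.499% against 2.85% of all DHS) and 111 falls (4.26% against 3.40% of all DHS). The median change was -0.27, against -0.50 for wider promoter DHS and 0.12 for all DHS, which centring of the libraries moved to -0.44 and -0.043 for narrow promoter and all DHS. In the 111 falling sites the median difference was 0.97 at 0 h and -0.46 at 24 h, and it was -1.20 and 0.87 in the 13 rising sites. Both sets were chosen by the change between these same libraries, so their medians follow in part from that choice. Over all narrow promoter DHS the medians were 0.20 at 0 h and -0.042 at 24 h. Of the 124, 87 (70.2%) were also called at 0 h and 12 at 24 h, which share libraries with the change. From 2 h to 24 h, limma called 0 of the narrow promoter DHS and 0% of all DHS. An unadjusted p under 0.05 was found in 82 of the former (3.15%), against 2.85% of all DHS. Without Control 0h replicate 6 the change from 0 h was called in 38 (5 rises and 33 falls), against 1.97% of all DHS, and without Control 0h replicate 5 in 201. It was called in 81 and 140 without Ikaros 0h replicates 4 and 5, in 61 to 68 without an Ikaros 24h library, and in 69 and 76 without Control 24h replicates 4 and 6.

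Sites named for the change were chosen for Ikaros libraries that did not overlap between 0 h and 24 h. Tmem232 rose in Ikaros cells from 1.46, 2.19 and 3.39 at 0 h to 4.92, 4.99 and 5.02 at 24 h, while control values were 5.33, 3.64 and 4.39 and then 4.60, 4.43 and 3.02. The Ikaros groups did not overlap and the control groups did, and the change was 3.07 ± 0.64 (SE; limma adjusted p = 0.0105, held in 19 of 23 alternatives). Bloc1s6, a subunit of the BLOC-1 complex of lysosome-related organelles, went from 0.68, 4.05 and 3.08 to 5.34, 4.70 and 4.25 in Ikaros cells, against 4.70, 4.12 and 3.99 and then 4.01, 3.15 and 3.03 in control cells. Its change was 3.04 ± 0.81 (SE; limma adjusted p = 0.0276), and 1 Ikaros 0 h library was far below the others. Tnnt3, the fast skeletal muscle troponin T, went from 1.89, 1.54 and 3.18 to 4.41, 4.54 and 3.22 in Ikaros cells and from 3.09, 4.01 and 3.52 to 3.25, 2.66 and 2.69 in control cells (2.52 ± 0.56, SE; limma adjusted p = 0.0127). The others named were Rimbp2 (2.12, 86.1% soft-masked, held in 4 of 23 and lost with the block) and the olfactory receptor gene Olfr872 (2.11, held in 12 of 23, and 0.74 with a limma adjusted p of 0.610, range 0.0214 to 0.610 over the alternatives, once trends with level, GC and width were removed). Without Control 0h replicate 6 the calls of Bloc1s6 (3.18), Rimbp2 (2.07) and Olfr872 (1.77) were lost and those of Tmem232 and Tnnt3 stayed.

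The falling sites had a median above 0 at 0 h and below 0 at 24 h, in part because the change chose them. Rusc1, an adaptor protein gene with RUN and SH3 domains, had 6.13, 5.76 and 5.59 in Ikaros cells at 0 h and 4.20, 4.05 and 4.42 at 24 h, against 4.17, 4.84 and 3.22 and then 4.45, 5.34 and 5.00 in control cells. The Ikaros groups did not overlap (-2.46 ± 0.45, SE; limma adjusted p = 0.00605), and the call held in 22 of 23 alternatives. Its neighbouring wider promoter DHS changed by -0.24. Kat6b fell by 2.77 (limma adjusted p = 0.0457 and 0.0513 with the block, 0.0110 to 0.269 over all alternatives, held in 6 of 23), with Ikaros values of 4.92, 5.08 and 4.60 at 24 h and the control value of 0.38 at 0 h given above. Rhog, a small GTPase gene, went from 5.03, 5.22 and 5.13 to 3.95, 3.82 and 3.57 in Ikaros cells and had control values of 3.45, 4.29 and 1.34 at 0 h and 3.73, 4.68 and 3.53 at 24 h (-2.30 ± 0.61, SE; limma adjusted p = 0.0265). The DHS by Exd1 and Chp1 went from 6.16, 4.72 and 5.55 to the 24 h values above (-2.29, limma adjusted p = 0.00944, held in 20 of 23), and Arhgap21, another GTPase-activating protein gene, fell by 2.23 (limma adjusted p = 0.0293). Without Control 0h replicate 6 the changes of Kat6b (-1.37), Rhog (-1.45) and Arhgap21 (-1.50) were no longer called, and those of Rusc1 and the Exd1 and Chp1 site were.

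**Figure D5:**
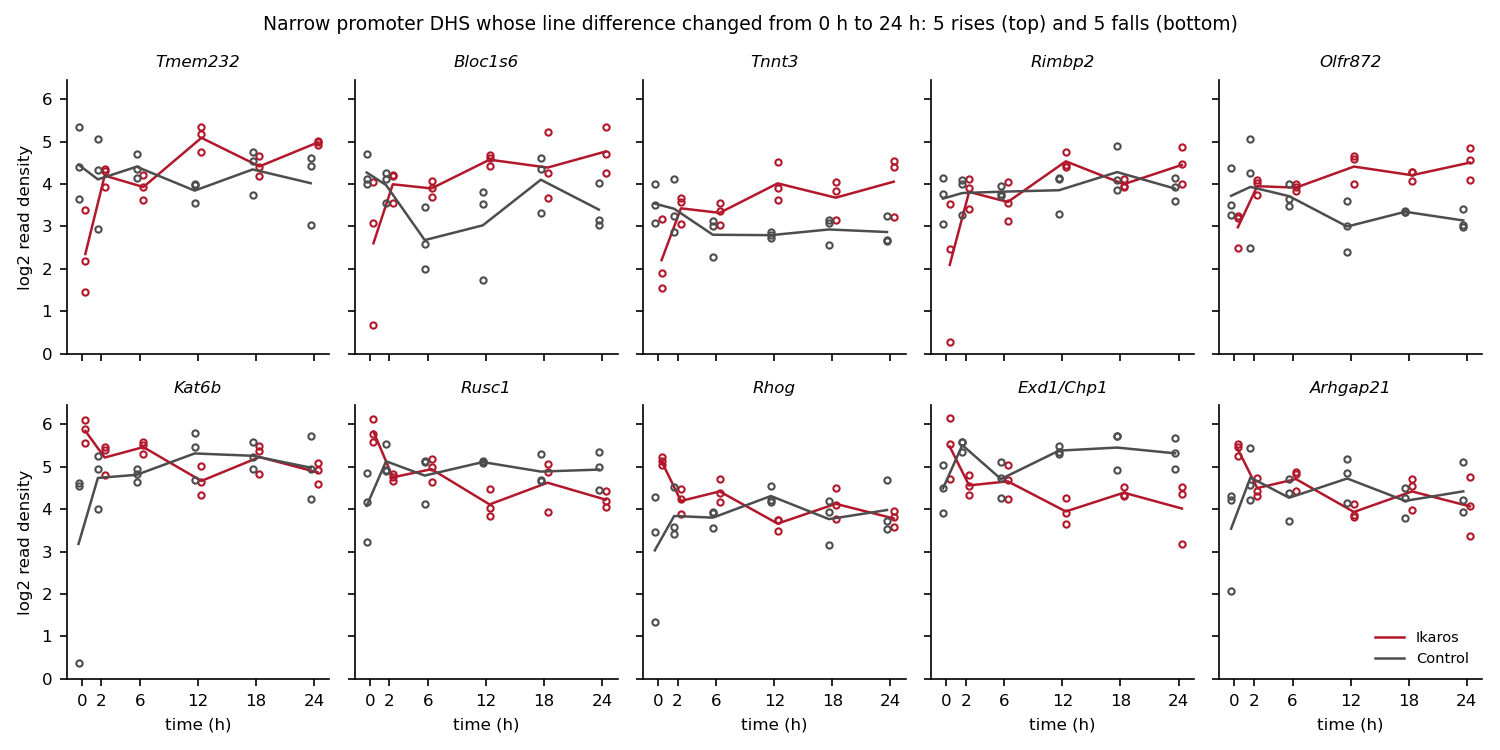
Log2 read density against time in h for the 10 narrow promoter DHS named for a change of the line difference from 0 h to 24 h, rises in the top row and falls in the bottom row. Circles are libraries (n = 3 a group), lines join group means, Ikaros is red and control grey; the changes run from 3.07 (Tmem232) to -2.77 (Kat6b), whose 1 control library at 0 h was at 0.38.

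In limma F-tests over all times, 28 sites (1.07%) were called for an interaction of line and time, against 1.10% of all DHS. With the replicate block it was 12, against 0.498% of all DHS. Change over time was called in 29 sites (1.11%) in Ikaros cells, against 2.29% of all DHS, and in 5 (0.192%) in control cells, against 0.148% of all DHS. With the block it was called in 18 and 2, against 1.61% and 0.0815% of all DHS. These counts changed when single libraries were left out. The interaction count was lowest, at 4, when Control 0h replicate 6 was left out and highest, at 65, for Control 12h replicate 4. It was 45 for Control 0h replicate 5, 56 and 53 for Control 2h replicates 4 and 5, 16 for Control 12h replicate 5 and 18 for Control 24h replicates 4 and 6. It was 6 and 16 for Ikaros 0h replicates 4 and 5, 10 to 17 for each Ikaros 2h, 12h and 24h library, 15 for Ikaros 6h replicate 5 and 18 for Ikaros 18h replicates 5 and 6. The count over time in Ikaros cells was 4 and 13 for Ikaros 0h replicates 4 and 5, 17 to 19 for the Ikaros 12h libraries and 16 for Ikaros 24h replicate 5. In control cells it was 24 and 0 for Control 0h replicates 4 and 6, 8 to 15 for the Control 2h libraries, 12 and 2 for Control 6h replicates 4 and 5, and 3 for Control 18h replicate 4.

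Differences of narrow DHS were set beside those of the wider neighbour at the same promoter, without a test of the difference between them. Over 1405 pairs, the differences had the same sign in 67.6% at 0 h and 57.4% at 24 h, and in 52.3% (2 h) to 60.6% (12 h) between, with r across pairs from 0.0948 to 0.218. At 24 h, 15 narrow DHS and 15 neighbours of these pairs were called, and 1 pair had both. At 0 h, 212 narrow DHS and 515 neighbours of the 1405 pairs were called, with 94 pairs in both lists (44.3% of the former and 18.3% of the latter), 88 of them in the same direction. Most 0 h calls were higher in Ikaros cells in both classes (312 of 361 narrow and 2969 of 3003 wider promoter DHS). A shared direction was thus likely for any pair. Solitary sites and those with a neighbour were called in 12.4% and 15.1% at 0 h (3.74% and 6.05% without Control 0h replicate 6) and in 0.749% and 1.07% at 24 h.

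Position and base composition went together. Sites centred within 300 bp downstream of the TSS had a median GC content of 66.0% and a median 0 h difference of 0.45, and those within 300 bp upstream had 61.7% and 0.27. Sites beyond 300 bp had 57.4% and 0.15 downstream and 52.8% and 0.036 upstream. In the same order, the medians without Control 0h replicate 6 were 0.39, 0.28, 0.11 and -0.0075. At 24 h the calls were 9 of 754 within 300 bp upstream, 9 of 624 farther upstream, 6 of 835 farther downstream and 0 of 394 within 300 bp downstream.

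In GC and CpG content the narrow promoter DHS lay between wider promoter DHS and narrow DHS away from any TSS. Over the whole DHS the median GC content was 58.2%, 60.9% and 49.2% in narrow promoter DHS, wider promoter DHS and narrow DHS away from any TSS. In a 100 bp window at the DHS centre the median ratio of observed to expected CpG was 0.58, 0.84 and 0.19, in the same order. A ratio of 0.6 or more was found in 48.1%, 77.3% and 6.97%, and in 23.0% of all DHS. Letters were searched on both strands. The Sp/KLF letters GGGCGG were in 24.7% of narrow promoter DHS, 40.9% of wider promoter DHS and 3.17% of narrow DHS away from any TSS, and the ETS letters CCGGAAG in 4.95%, 12.7% and 1.15%. The NRF1 motif was in 1.73%, 8.13% and 0.0768%, and NF-Y letters CCAAT in 12.1%, 23.4% and 10.6%. With the classes listed as before, the ranking was reversed for the Runx letters TGTGGT (8.59%, 5.04% and 16.5%) and TATA letters TATAAA (2.61%, 1.09% and 3.76%). E-box letters CACGTG (5.52%, 6.22% and 2.78%), the CRE letters TGACGTCA (1.04%, 2.87% and 0.255%) and YY1 letters AAGATGGC (0.959%, 1.63% and 1.10%) were also searched, and the YY1 share was lowest in narrow promoter DHS.

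The Ikaros core letters TGGGAA were in 188 narrow promoter DHS (7.21%), 7.89% of wider promoter DHS, 8.82% of narrow DHS away from any TSS and 8.58% of all DHS, the share again being lowest in narrow promoter DHS. The median 24 h difference was -0.12 in the 188 with the letters and -0.035 in the 2419 without. Of these 3 and 21 were called (1.60% and 0.868%), against 1.33% of all DHS. For the other motifs searched, the 24 h share called ran from 0% (NRF1, YY1, CRE and Runx) to 1.55% (ETS). Their 24 h medians ran from -0.22 (CRE) to 0.068 (TATA). The 188 sites had a median GC content of 56.2%, and the second GC quartile had a median 24 h difference of -0.14. At 0 h the medians were 0.20 in both. Sites with the NRF1 motif (45, median GC 71.8%) had a median 0 h difference of 0.98, with 25 called (55.6%), and those with GGGCGG (644, median GC 68.9%) one of 0.60. These medians were 0.74, with 10 called (22.2%), and 0.50 without Control 0h replicate 6. Sites with TGTGGT (224, median GC 52.4%) had one of -0.029.

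Gene lists of the pre-B cell and of its housekeeping were read by counts over their narrow promoter DHS. Of all narrow promoter DHS, 12.0% were called higher at 0 h, 54.1% were below 0 at 24 h and 64.9% were below 0 in the change, and counts in a list near these shares are no result about it. Among the RT-PCR markers and DNase I titration loci, 3 of 11 genes had such a DHS, and none was called at 24 h. Foxo1, a forkhead factor that drives pre-B differentiation, had 5.30, 4.61 and 5.01 in Ikaros and 4.04, 3.90 and 3.74 in control cells at 0 h, without overlap, and 4.82, 4.47 and 4.52 against 4.72, 4.91 and 4.04 at 24 h, with overlap (0.048 ± 0.27, SE; limma adjusted p = 0.961). The site was 76.5% GC, and the 0 h difference of 1.08 was 1.01 without Control 0h replicate 6 (limma adjusted p = 0.0503) and 0.11 with GC, level and width trends removed (limma adjusted p = 0.877, range 0.00397 to 0.877 over the alternatives). Hk2, the hexokinase of proliferating cells, had 4.22, 4.09 and 4.05 against 4.52, 4.32 and 3.96 at 24 h (-0.15 ± 0.32, SE; limma adjusted p = 0.890). Lig4, the ligase of non-homologous end joining, had 5.65, 5.79 and 4.81 against 3.62, 4.17 and 4.04 at 24 h in an intronic DHS (1.47 ± 0.54, SE; limma adjusted p = 0.168), where the groups did not overlap but the adjusted test did not call it.

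Cell cycle genes had 14 narrow promoter DHS, of which 13 were below 0 at 24 h (median -0.24), and 1, that of Ccnd2, was called lower. Their change from 0 h was below 0 in 13 of 14, and 3 were called, those of E2f3 (-1.66), Cdkn1a (-1.53) and Ccnd2 (-1.07), but none of the 14 without Control 0h replicate 6 (-1.49, -1.34 and -0.98). E2f3, an E2F factor of the G1/S transition, had 6.33, 6.67 and 6.20 in Ikaros and 4.67, 5.31 and 4.48 in control cells at 0 h, and 5.25, 4.87 and 5.02 against 5.12, 4.62 and 5.62 at 24 h. The groups were apart at 0 h and overlapped at 24 h. Cdkn1a encodes p21, an inhibitor of cyclin-dependent kinases, and thus has the opposite role to the other members that moved. The median change was -0.70 in this list, against -0.27 for all narrow promoter DHS, and -0.42 against -0.24 without that library.

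The 5 glycolysis DHS were all below 0 at 24 h (median -0.45) and in the change (median -0.48), and 1 change was called. Gapdh, the glyceraldehyde-3-phosphate dehydrogenase gene, had 5.12, 5.71 and 5.83 in Ikaros and 5.33, 4.79 and 3.27 in control cells at 0 h, and 4.47, 4.53 and 4.82 against 5.16, 5.59 and 5.80 at 24 h. The groups overlapped at 0 h, where the difference of 1.09 was 0.49 without Control 0h replicate 6 (limma adjusted p = 0.312, range 0.00581 to 0.580 over the alternatives), and did not overlap at 24 h. The change was -1.99 ± 0.46 (SE; limma adjusted p = 0.0151, held in 19 of 23 alternatives). All 6 apoptosis DHS were below 0 at 24 h (median -0.36) with 0 called, 1 was called at 0 h (Bad, 0.68), and the change of Bbc3, the p53 target Puma, was called (-0.98), both lost without Control 0h replicate 6. DNA replication genes had 7 DHS with a median of -0.44 at 24 h, 6 of them below 0, and 0 called at any time.

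B-lineage and lymphoid transcription factors had 17 DHS, with 2 called higher at 0 h (Foxo1 and Runx3, 1.61, of which Runx3 stayed called without Control 0h replicate 6) and 0 called at 24 h, when 11 were below 0 (median -0.086). The Runx3 difference was 0.61 with trends in level, GC and width removed and 0.98 without Ikaros 0h replicate 5, and neither was called. Pre-B receptor and B-cell signalling genes had 21, with 2 called at 0 h, Stat5b, which acts below the interleukin 7 receptor (1.98), and Vav1, a guanine exchange factor (0.73), of which Stat5b stayed called without Control 0h replicate 6. The Stat5b difference was 0.59, and not called, with the same trends removed. At 24 h 13 of the 21 were below 0 (median -0.20) and 0 were called. The change of Pik3cd, the PI3 kinase delta subunit, was called at -1.05, with Ikaros values of 5.73, 5.60 and 5.50 and control values of 6.11, 6.39 and 6.17 at 24 h, but not without Control 0h replicate 6 (-0.87). Chromatin regulators had 22 DHS, with 4 called higher at 0 h, including Smarcc2, Mta1 and Ctcf (1.66, shared with Agrp), and 1 at 6 h, that of Tet3. Without Control 0h replicate 6, 1 of the 22 was called at 0 h, that of Smarcc2, which was 1.19 and not called with the trends removed. At 24 h 18 of the 22 were below 0 (median -0.18) and 0 were called. Mta1 (1.01 at 0 h, 88.5% GC) turned to -0.76 when the trends with level, GC and width were removed.

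Proteasome and ubiquitin genes had 16 DHS with 4 called higher at 0 h, including Cul1 (1.81), Ube2b (1.34) and Vcp (0.84), and spliceosome genes had 8 with 2 called, Srsf7 (1.22) and U2af2 (1.02). These counts were 3 and 0 without Control 0h replicate 6. At 24 h 9 of the 16 (median -0.027) and 6 of the 8 (median -0.19) were below 0. The change was called lower at Srsf7 (-1.65), but not without that library (-1.25). Of 4 DHS of translation factors, 1 was called at 0 h (Eif4b, 1.25, lost without Control 0h replicate 6), and 1 was below 0 at 24 h (median 0.33). Ribosomal protein genes had 6 DHS, all below 0 at 24 h (median -0.26). At 0 h 1 of the 6 was called lower, also without Control 0h replicate 6, and Rpl38 was called lower at 6 h. Mitochondrial respiration genes (6 DHS) and recombination and repair genes (6 DHS) had 0 called at any time, with 24 h medians of -0.14 (5 below 0) and 0.15 (2 below 0). At 24 h, 24 of all 2607 narrow promoter DHS were called. Of these 1, Ccnd2, was in a list, and most alternatives lost its call.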

How the data were processed

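DNase-seq was carried out on 36 B3 libraries. The authors mapped trimmed reads with Bowtie to mm10, called peaks per replicate with HOMER at a default narrow size and at 500 bp, merged them into consensus DHS, counted reads with bedtools, scaled by RPKM and TMM, and removed structured noise with ARSyN, which models variation they could not tie to a known factor. The deposited values are log2 values, and the base was settled from their sums. ARSyN can narrow the spread between replicates, so p-values may be too small. Counts and depth cannot be recovered, so no count test or interval was used. Replicates share a line, and p-values measure the spread between these samples only.

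Sites were annotated with GENCODE vM21 basic on GRCm38. Lines were compared per time, between times and by F-tests with limma 3.58.1 (R 4.3.3; moderated, with a trend of spread on level) over all 12 groups, without the replicate block, with Benjamini-Hochberg adjustment over all 52788 DHS and a threshold of 0.05. No filter on low values and no pseudocount were applied, so all 2607 sites were tested. Tables and plots used Python 3.11.15, numpy 2.4.6, pandas 2.3.3 and matplotlib 3.10.9. The fit was also run on simulated independent values, with each DHS given the same spread in all groups. The spread of these data differed between groups, so that run does not check the p-values given here.

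Named sites were those called with the 5 largest differences each way at 0 h, 24 h and in the change (2 each way at other times) whose libraries did not overlap between the lines, or, for the change, between Ikaros 0 h and 24 h. To these were added the 3 highest and 3 lowest sites, marker genes and, per list, up to 4 called sites. Some of these sites are not reported here. The members, the 14 gene lists and the cell type markers were chosen with earlier results of these data known. A call held under an alternative if it kept its direction and stayed past the threshold.

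The labels tie each replicate number to a batch, so a fit with the number as a block was also made. Deviations from group means of same-numbered libraries had a median correlation of -0.0103 over 198 pairs, against 0.00789 over 396 pairs with different numbers. By the labels each batch holds all 12 groups, although the methods state that 0 h cells were collected apart from the time courses. The alternatives were the block, quantile normalization, centring, values freed of each library's trend on level, GC and width, no trend of spread, a spread per group, only the groups compared, a filter of low values, other width, distance and motif limits, and leaving out libraries or replicates.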

Additional observations from a re-analysis of the deposited data

Results flagged for a closer look

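The line difference changed between 0 h and 24 h in 124 narrow promoter DHS (4.76%) by a limma test of the change itself, against 6.26% of all DHS. For an interaction of line and time over all times 28 were called (1.07%), against 1.10% of all DHS. Among the named sites the difference rose at Tmem232 by 3.07, at Bloc1s6 by 3.04, at Tnnt3 by 2.52, at Rimbp2 by 2.12 and at Olfr872 by 2.11 on the log2 scale. It changed by -2.77 at Kat6b, -2.46 at Rusc1, -2.30 at Rhog, -2.29 at the site of Exd1 and Chp1 and -2.23 at Arhgap21. Groups of 3 libraries are too small for a test of single outlying libraries.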

How the results depend on the processing

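Counts are narrow promoter DHS called by limma, in the order of the times named. With the replicate block they were 13 at 12 h, 14 at 24 h, 12 for the interaction, and 18 and 2 for time in Ikaros and control cells, and the block moved no other count by over 1.5 times. The shares of all DHS were 0.904%, 0.957%, 0.498%, 1.61% and 0.0815% in the same order. Quantile normalization gave 8 at 12 h, 6 at 18 h, 70 for the change from 0 h, 7 for the interaction and 0 for time in control cells. Of all DHS it gave 0.604%, 0.337%, 2.55%, 0.369% and 0%. Centring gave 1 at 2 h, 217 for the change and 54 for the interaction (0.275%, 8.21% and 1.60% of all DHS). It gave a median level of 0.23 by construction and a median 24 h difference of -0.11. With trends removed the counts were 64, 13, 3, 4 and 9 at the 5 times without 2 h, 12 for the change, 1 for the interaction, and 17 and 2 for time in Ikaros and control cells. The shares of all DHS with trends removed were 2.89%, 0.421%, 0.248%, 0.381%, 0.602%, 0.343%, 0.0322%, 1.00% and 0.0644%. The median 24 h difference was then -0.10, and Mta1 at 0 h turned to -0.76. Without a trend of spread the interaction gave 11 and time in Ikaros cells 17. At the same times a spread per group gave 93, 46, 34, 56 and 128, 72 for the change, and 0 for both the interaction and time in control cells. The shares of all DHS were then 2.80%, 1.16%, 2.05%, 3.07%, 6.12%, 3.23%, 0.00947% and 0%. The groups compared alone gave 0, 1, 0, 3 and 46, 4 for the change, and 140 and 0 for time in Ikaros and control cells. Their shares of all DHS were 0.00379%, 0.0170%, 0%, 0.0549%, 1.33%, 0.0606%, 7.52% and 0%. At most 150 bp wide, there were fewer sites and 239 were called at 0 h, with 12, 7 and 13 at the last 3 times and 74 for the change, 17 for the interaction and 3 for time in control cells, with a median level of 4.14. Within 500 bp, also fewer sites, 14 were called at 12 h, 4 at 18 h and 14 at 24 h, and 2 for time in control cells. In a 60 bp window 50.5% had a CpG ratio of 0.6 or more. For causes not given, the cause was not tested.

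Leaving out libraries or whole replicates gave 121 to 401 at 0 h, 0 to 13 at 2 h, 0 to 39 at 6 h, 0 to 38 at 12 h, 0 to 8 at 18 h, 1 to 8 at 24 h, 5 to 201 for the change from 0 h, 0 for that from 2 h, 0 to 65 for the interaction, and 0 to 32 and 0 to 50 for time in Ikaros and control cells. Shares of all DHS are given here only for the omission of Control 0h replicate 6. The counts under other omissions are thus no result about narrow promoter DHS in particular. Over 123 comparisons of named sites and 2311 alternatives, 1681 kept direction and side of the threshold, 555 lost the call and 27 gained it. Read depth is unknown and limits every site.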
